A study of Mus musculus with 6 samples.

Results

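The heavy chain V segments, the gene symbols that start with Ighv, were read in 4 single-cell RNA libraries of mouse spleen germinal centre B cells. The Day14 count table lists 185 Ighv symbols of 31053, and the chimaera table lists 124 of 15763. All 4 libraries come from cells sorted as B220+ CD95hi GL7hi IgD- on day 14 after intraperitoneal immunisation with NP-haptenated antigen in alum. The Day14 group holds 2 libraries of adult wild type mice. The other libraries are reverse chimaeras, made by irradiating a host and giving it wild type bone marrow, so that the B cells are wild type and the host's stroma differs. The control (1 library) had Il4ra+/+ hosts, and the KO (1 library) had Ccl19Cre/+ Il4raf/f hosts, in which Ccl19-driven Cre removes the IL-4 receptor alpha chain in lymphoid stromal cells, the follicular dendritic cell lineage included. Irradiated hosts can keep some of their own radioresistant cells. The labels do not say how many mice gave each library.

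A cell was given a top segment when it held at least 3 Ighv UMIs (counted molecules) and at least 80% of them came from 1 symbol. This gave 765 of 9109 cells in Day14 library 1, 800 of 10648 in Day14 library 2, 3236 of 8038 in the control and 2798 of 7314 in the KO, 7599 of 35109 cells in all. Ighv UMIs made up 0.0336%, 0.0321%, 0.337% and 0.162% of all UMIs in the same order, from 35637133 to 62202828 UMIs per library. The median cell held 3399, 3178.5, 6676 and 7185.5 UMIs. Cells with a top segment were deeper than the rest, with medians of 5430 to 8400 UMIs against 3024 to 6155. Any 2 libraries shared 90 to 135 cell barcodes. The Day14 and chimaera tables were made separately, so levels were compared within a table and shares of cells across tables are given side by side.

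A heavy chain gene is built in each B cell by joining 1 of many V segments to a D and a J segment, and the V segment encodes most of the part that touches antigen. In the germinal centre, B cells divide and mutate these genes in the dark zone and are selected by antigen and T cell help in the light zone, and they leave as memory or plasma cells. Ighv1-72 is the segment known from antibodies to the NP hapten in mice of the Igh-b haplotype, where it often pairs with the lambda light chain Iglv1. The segments are many near copies of each other, so a mutated transcript can be counted under a neighbour's symbol.

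The segments lie on the minus strand of chromosome 12. Of the listed symbols, 183 of 185 and 123 of 124 matched the GENCODE vM21 annotation (GRCm38, the assembly called mm10). Of the Day14 symbols 113 were annotated as functional V genes and 69 as pseudogenes, against 105 and 18 in the chimaera table. The sequences shown are the last 294 bases of each segment's second exon in the reference genome, 5′ to 3′ on the coding strand. The first pair is shown because Ighv1-72 led the use of segments in 3 of the 4 libraries and Ighv1-62-3 is its nearest copy. Ighv14-3 followed it most closely across clusters. Capitals in Ighv1-62-3 and Ighv14-3 mark the bases that differ from Ighv1-72. Ighv3-6 with Ighv10-1, and Ighv9-3 with the pseudogene Ighv1-83, were found in the same cells. In those pairs capitals mark the longest run of bases the partners share.
Ighv1-72: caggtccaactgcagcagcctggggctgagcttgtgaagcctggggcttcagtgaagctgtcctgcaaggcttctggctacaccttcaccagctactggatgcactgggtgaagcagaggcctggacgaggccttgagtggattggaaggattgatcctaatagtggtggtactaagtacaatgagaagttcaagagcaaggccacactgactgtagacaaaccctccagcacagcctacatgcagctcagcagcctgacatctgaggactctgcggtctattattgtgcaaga
Ighv1-62-3: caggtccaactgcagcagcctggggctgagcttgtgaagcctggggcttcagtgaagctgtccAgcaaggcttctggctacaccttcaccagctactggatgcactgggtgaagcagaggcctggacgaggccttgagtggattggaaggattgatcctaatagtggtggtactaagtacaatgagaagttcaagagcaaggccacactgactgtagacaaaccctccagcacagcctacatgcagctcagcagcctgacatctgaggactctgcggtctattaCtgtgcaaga
Ighv14-3: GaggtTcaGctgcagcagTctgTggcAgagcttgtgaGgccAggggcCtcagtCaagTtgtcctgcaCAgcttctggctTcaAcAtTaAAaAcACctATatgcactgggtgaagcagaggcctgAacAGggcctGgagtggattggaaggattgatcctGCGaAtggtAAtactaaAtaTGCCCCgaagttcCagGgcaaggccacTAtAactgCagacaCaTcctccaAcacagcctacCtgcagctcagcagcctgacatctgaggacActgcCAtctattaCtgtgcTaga
Ighv3-6: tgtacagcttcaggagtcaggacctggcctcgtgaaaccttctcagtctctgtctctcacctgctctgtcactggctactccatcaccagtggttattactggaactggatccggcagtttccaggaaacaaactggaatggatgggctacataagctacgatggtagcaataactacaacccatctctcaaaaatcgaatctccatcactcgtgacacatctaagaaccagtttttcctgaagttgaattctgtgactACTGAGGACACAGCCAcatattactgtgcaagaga
Ighv10-1: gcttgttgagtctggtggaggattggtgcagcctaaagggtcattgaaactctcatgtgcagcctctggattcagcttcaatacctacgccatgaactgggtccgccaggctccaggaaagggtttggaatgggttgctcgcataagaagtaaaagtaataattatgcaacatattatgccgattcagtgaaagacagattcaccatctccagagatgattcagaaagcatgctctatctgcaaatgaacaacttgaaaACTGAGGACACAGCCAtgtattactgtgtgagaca
Ighv9-3: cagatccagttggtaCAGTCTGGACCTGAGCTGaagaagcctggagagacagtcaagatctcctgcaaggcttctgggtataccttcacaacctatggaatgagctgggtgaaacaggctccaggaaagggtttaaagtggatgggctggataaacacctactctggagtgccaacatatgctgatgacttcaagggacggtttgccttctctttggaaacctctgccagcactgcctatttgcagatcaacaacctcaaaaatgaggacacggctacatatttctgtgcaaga
Ighv1-83: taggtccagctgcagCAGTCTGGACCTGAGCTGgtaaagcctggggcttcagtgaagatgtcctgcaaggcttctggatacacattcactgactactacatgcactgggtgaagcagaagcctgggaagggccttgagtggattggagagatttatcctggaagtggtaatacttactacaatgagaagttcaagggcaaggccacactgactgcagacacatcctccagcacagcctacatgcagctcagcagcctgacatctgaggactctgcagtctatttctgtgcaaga
Ighv1-72 (chr12:115757984-115758277) and Ighv1-62-3 (chr12:115460999-115461292) had 292 identical bases of 294, 99.3%. Ighv1-53 and Ighv1-64 each differed from Ighv1-72 at 12 bases (95.9% identity), and Ighv14-3 (chr12:114059845-114060138) at 56 bases (81.0%). By contrast, Ighv3-6 (chr12:114288152-114288445) and Ighv10-1 (chr12:114479005-114479298) were 60.4% identical with a longest shared run of 16 bases. Ighv9-3 (chr12:114140692-114140985) and Ighv1-83 (chr12:115963817-115964110) were 67.6% identical with a run of 18 bases. Among the 18 segments that led at least 2% of cells in some library, 12 had another annotated segment at 95% identity or more, so the split of counts between such copies is uncertain.

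Ighv1-72 was the most used segment in 3 libraries. It was the top segment of 18.3% of cells in Day14 library 1 (140 of 765; exact 95% interval 15.6 to 21.2), 9.5% in Day14 library 2 (76 of 800; 7.56 to 11.7), 19.1% in the control (618 of 3236; 17.8 to 20.5) and 18.7% in the KO (522 of 2798; 17.2 to 20.1). The mean was 16.4% ± 4.60 (SD, n = 4 libraries), with Day14 library 2 apart below the others. UMIs of Ighv1-72 were also present in 2.40%, 0.967%, 9.28% and 9.58% of the cells led by another segment, and their source was not tested. The chimaera libraries, with more Ighv UMIs per cell, had the higher shares.

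Ighv3-6 led Day14 library 2 instead, with 30.9% of cells (247 of 800; 27.7 to 34.2). Its shares were 4.31%, 2.78% and 2.43% in Day14 library 1, the control and the KO. Ighv1-53 followed with 7.97%, 3.12%, 3.21% and 3.65% in the order Day14 library 1, Day14 library 2, control and KO, and Ighv14-3 with 3.92%, 1.88%, 6.43% and 5.04%. The intervals of Ighv1-53 in Day14 library 2, the control and the KO overlap, as do those of Ighv14-3 in the control and the KO. Ighv1-26 (2.75%, 5.5%, 2.78% and 2.82%), Ighv9-3 (2.61%, 1.5%, 4.79% and 3.47%) and Ighv6-3 (4.18%, 3.25%, 1.64% and 1.54%) came next. The remaining 11 of the 18 stayed below 4% in every library.

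**Figure D1:**
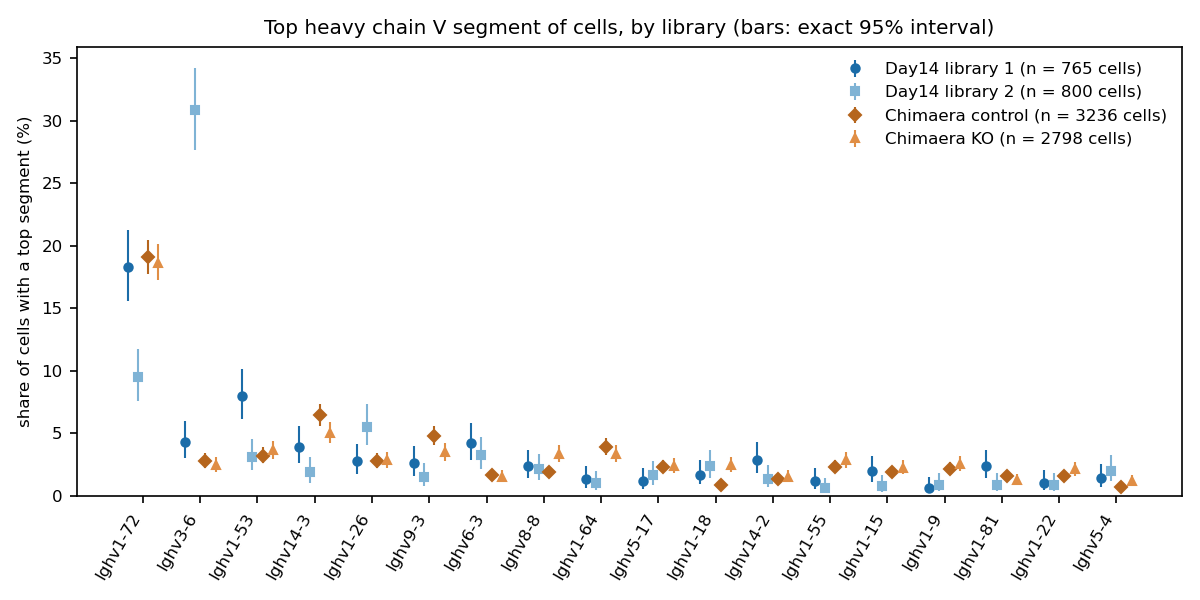
Share of cells with a top segment (y axis, %) for the 18 segments that led at least 2% of cells in any library (x axis, ordered by mean share); points are libraries and bars exact 95% intervals, which cover counting error only. Ighv1-72 stands at 18.3 to 19.1% in 3 libraries and 9.5% in Day14 library 2, where Ighv3-6 reaches 30.9%.

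By family, Ighv1 segments led 58.7%, 38.1%, 61.6% and 62.1% of cells. The Ighv3 family led 6.41%, 31.9%, 4.54% and 4.32%, most of it Ighv3-6 in Day14 library 2. Families 14, 5, 2 and 9 each stayed between 1.88% and 8.50%. The 91 of 183 annotated segments nearest the J segments led 40.3%, 61.3%, 39.9% and 38.0% of cells, and 49.3%, 67.7%, 49.3% and 46.7% once Ighv1-72 cells, at position 165, were left out. In 3 libraries these 91 segments thus led about as many of the remaining cells as the other 92 did.

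**Figure D2:**
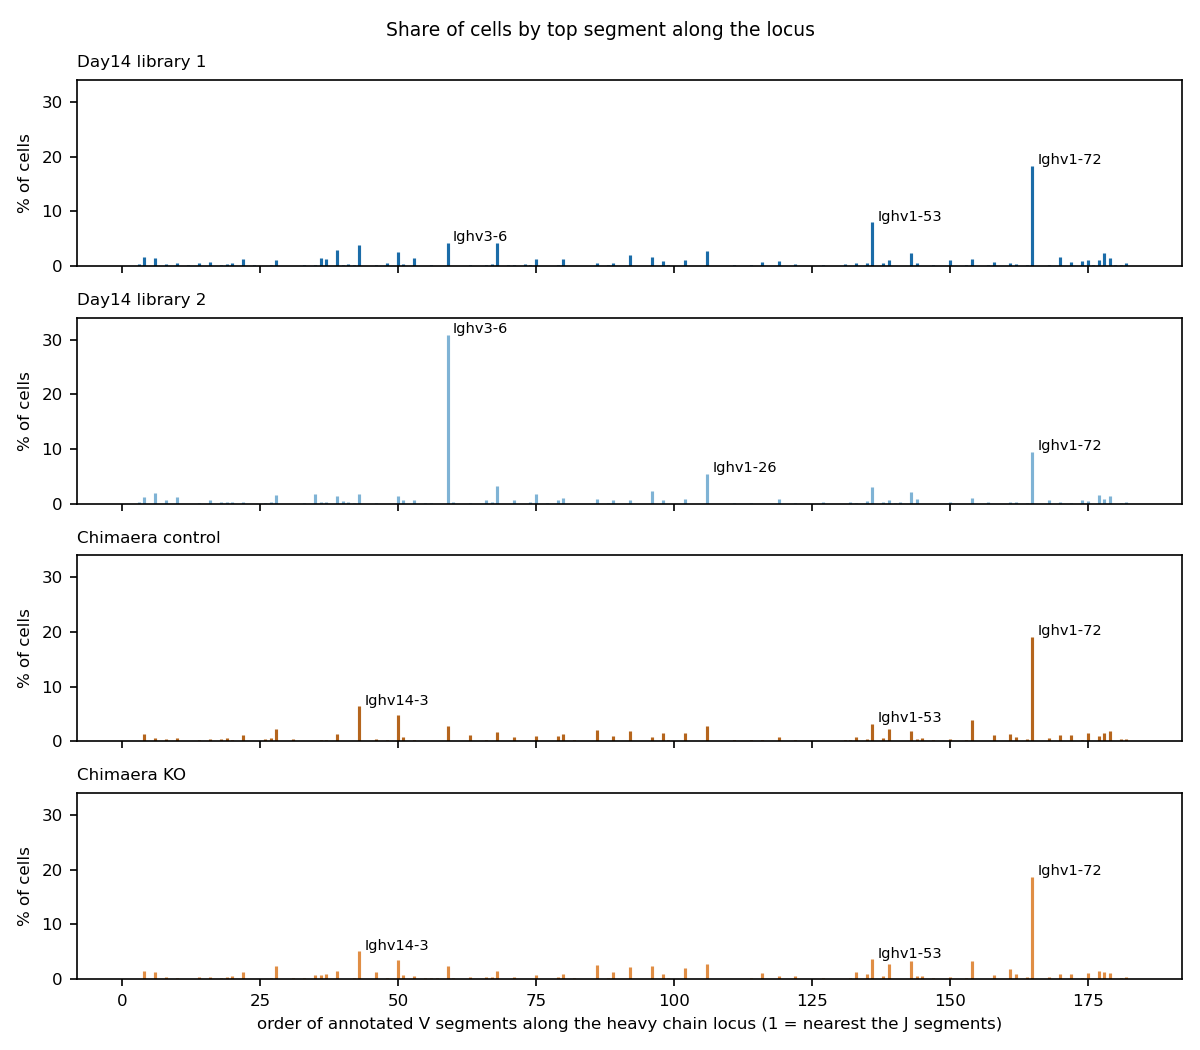
Share of cells by top segment (y axis, %) in the order of the annotated segments along the locus (x axis, 1 nearest the J segments), 1 panel per library. Single tall lines, at Ighv1-72 in each library and at Ighv3-6 in Day14 library 2, rise from a low background of many segments.

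Use was spread over many segments. A UMI of 124, 110, 121 and 121 segments was seen per library, and 87, 81, 97 and 93 segments were the top segment of at least 1 cell. The inverse Simpson index, the number of equally used segments that would give the same chance that 2 cells share a segment, was 19.2, 8.79, 18.7 and 19.8. Without the first segment of each library it was 35.6, 25.6, 38.2 and 41.7, and Day14 library 2 was again lowest. In Day14 library 2, 5 segments held 50% of cells, against 10, 11 and 11 elsewhere, while 90% of cells took 39 segments against 47, 47 and 48. The control and KO shared 85.7% of their segment use, and the Day14 libraries shared 60.6% of theirs. With Ighv1-72 and Ighv3-6 left out these values were 82.3% and 70.4%. The Day14 pair also had fewer cells with a top segment (765 and 800 against 3236 and 2798), where counting error lowers such an overlap more.

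Ighv1-72 cells carried lambda light chains far more often than other cells in each library. Light chains were called from the constant genes, with at least 3 UMIs and 80% of them from Igkc or from Iglc1 to Iglc3. Lambda made up 56.8% (50 of 88), 55.9% (19 of 34), 90.7% (283 of 312) and 94.1% (257 of 273) of Ighv1-72 cells in Day14 library 1, Day14 library 2, the control and the KO. In cells with another top segment it made up 31.3%, 15.1%, 70.1% and 64.0%. The difference was 25.5, 40.8, 20.6 and 30.1 percentage points, 29.3 ± 8.61 on average (SD, n = 4 libraries), higher in 4 of 4. With 4 libraries the exact sign-flip test cannot go below p = 0.13, which it gave (0.219 after Benjamini-Hochberg adjustment over 14 measures).

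The constant genes were read differently in the 2 tables. Igkc UMIs per kappa V UMI were 1.86 and 2.13 in Day14 but 0.120 and 0.145 in the chimaeras, and in the chimaeras 215 and 128 cells without Ighv1-72 had a kappa V segment and a lambda constant call. Calls from the light chain V segment were therefore set beside them. By V segment, lambda made up 39.8% (39 of 98), 50% (21 of 42), 92.7% (370 of 399) and 96.7% (324 of 335) of Ighv1-72 cells, and 13.8%, 6.45%, 20.4% and 18.8% of other cells. The mean difference rose to 55.0 points. Iglv1 alone was the light chain V segment of 38.8%, 42.9%, 89.5% and 92.8% of Ighv1-72 cells. In Day14 library 1 the kappa segment Igkv3-5 was more common in Ighv1-72 cells than Iglv1, at 44.9% (44 of 98), and in Day14 library 2 Igkv3-2 took 21.4%. Seen from the light chain, Ighv1-72 was the top segment of 32.3%, 25.3%, 29.6% and 34.8% of lambda cells and of 14.2%, 4.55%, 9.18% and 5.57% of kappa cells, by the constant genes.

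Isotype went with Ighv1-72 in part. The heavy chain class was called from at least 2 constant-gene UMIs, with 70% from 1 class. Among IgG1 cells Ighv1-72 led 16.7% (6 of 36), 36.7% (11 of 30), 43.3% (154 of 356) and 28.7% (94 of 328). IgG1 made up 4.69%, 15.9%, 32.4% and 23.9% of Ighv1-72 cells against 5.55%, 3.03%, 9.70% and 12.7% of others, so it was higher in 3 of 4 libraries (mean difference 11.5 points ± 9.65 SD; exact sign-flip p = 0.25, adjusted 0.35). Day14 library 1, with 6 such cells, went slightly the other way. IgG2c was rarer among Ighv1-72 cells in 4 of 4 libraries, with 0, 1, 3 and 2 cells, and a mean difference of -3.92 points ± 2.22 (exact p = 0.13, adjusted 0.219). The 0 of 128 cells in Day14 library 1 allows a share of up to 2.34% (3 counts of 128). IgG2b and IgG3 differed by -0.054 and 0.12 points on average, with Day14 and chimaera libraries on opposite sides of 0.

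The authors' zone calls put more Ighv1-72 cells in the dark zone, the site of division and mutation. Dark zone cells made up 69.3%, 71.1%, 53.1% and 64.4% of Ighv1-72 cells and 50.7%, 57.9%, 46.1% and 54.5% of others. The difference of 12.1 points ± 4.99 had the same sign in 4 of 4 libraries (exact sign-flip p = 0.13, adjusted 0.219). It was 0.753 points among IgG1 cells alone and 2.17 with at least 10 Ighv UMIs per cell, higher in 3 of 4 libraries each time. The first restriction left 6 and 11 Ighv1-72 cells in Day14 libraries 1 and 2, and the second left 8 and 3. Light zone calls were lower by the mirror amount (-12.0 points), and the difference was -0.525 and -2.13 points under these 2 restrictions. G1 cells were fewer (-11.4 points ± 3.15) and S and G2M cells more frequent (4.59 and 6.85 points), each in 4 of 4 libraries. Among IgG1 cells alone the mean phase differences turned, to 3.67 points for G1, -0.66 for S and -3.0 for G2M. Ighv1-72 cells were also somewhat deeper than others, with median UMIs of 6096.5 against 5365, 6453 against 5357, 8230.5 against 7838 and 9227 against 8226, and the part of depth in these differences was not tested.

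Ighv1-72 was scarce in the memory precursor-like clusters. These are Day14 cluster 6 and chimaera cluster 3 of the authors' clusters, named here from memory-associated markers. They held 2.86% (4 of 140), 2.63% (2 of 76), 11.2% (69 of 618) and 6.70% (35 of 522) of Ighv1-72 cells. Of other cells they held 27.2%, 10.6%, 25.1% and 19.6%. The difference was -24.3, -8.00, -13.9 and -12.9 points, a mean of -14.8 ± 6.87 (exact sign-flip p = 0.13, adjusted 0.219; lower in 4 of 4). Among IgG1 cells alone it was -0.997 points, lower in 3 of 4. The share of Ighv1-72 was lowest in these clusters among all clusters with 20 or more cells in every library. Plasma-like clusters held 4.29%, 1.32%, 7.61% and 4.60% of Ighv1-72 cells and 6.40%, 3.45%, 8.56% and 4.44% of others, a mean difference of -1.26 points (exact p = 0.25, adjusted 0.35).

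**Figure D3:**
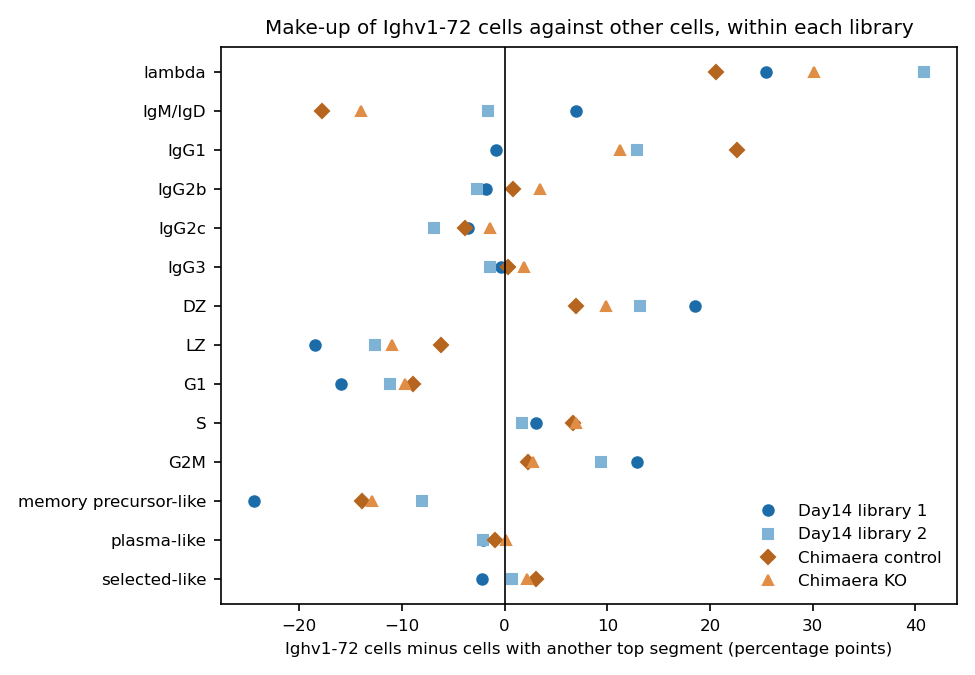
Difference in the share of cells (x axis, percentage points) between Ighv1-72 cells and cells with another top segment, for 14 measures (y axis); each point is 1 library. All 4 libraries lie right of 0 for lambda, DZ, S and G2M and left of 0 for LZ, G1, IgG2c and memory precursor-like cells.

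The memory precursor-like cells used the widest range of segments. Their inverse Simpson index was 40.6, 49.7, 37.8 and 40.4, against 13.8, 7.49, 15.2 and 16.8 in all other cells with a top segment (174, 79, 725 and 481 cells against 591, 721, 2511 and 2317). On the log2 scale the difference was 1.72 ± 0.69 (SD over 4 libraries), higher in 4 of 4, with the lowest p that an exact sign-flip test of 4 libraries gives, 0.13. With Ighv1-72 and Ighv3-6 cells left out the indices were 38.4 against 29.5, 47.8 against 32.1, 46.4 against 33.0 and 43.4 against 39.1, and the mean log2 difference was 0.40 ± 0.18, still higher in 4 of 4. The most frequent segment in these cells was Ighv1-81 in Day14 library 1 (6.90%, 12 of 174), Ighv6-3 in Day14 library 2 (7.59%, 6 of 79) and Ighv1-72 in the control (9.52%) and KO (7.28%). Whether the authors' clustering used V segment counts is not given in the sources used here. No V segment was among the 10 leading genes of the memory precursor-like clusters, whereas V segments were among those of Day14 clusters 1, 7, 8 and 9 and chimaera clusters 1, 5 and 7.

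Other segments differed in where their cells lay. Of Ighv1-64 cells (10, 8, 126 and 93 by library) 40%, 37.5%, 34.1% and 31.2% were memory precursor-like. Of Ighv6-3 cells (32, 26, 53 and 43) 28.1%, 23.1%, 34% and 25.6% were. Of Ighv1-81 cells 66.7% (12 of 18), 28.6% (2 of 7), 42.0% (21 of 50) and 31.4% (11 of 35) were. Each of these lies above the Ighv1-72 value of the same library. Ighv14-3 cells were near the Ighv1-72 values, at 3.33%, 6.67%, 9.62% and 10.6% of 30, 15, 208 and 141 cells, so the Day14 values rest on few cells. Across 33 library and cluster points, Ighv14-3 also had the share most like that of Ighv1-72 among 19 segments with at least 100 cells (r = 0.70). Next came Ighv14-2 (r = 0.43) and Ighv1-22 (r = 0.27), and Ighv3-6 was least alike (r = -0.45). The points share libraries and cells, and shares within a library sum to 100%, so these values only describe the pattern. Ighv14-3 cells were also mostly Iglv1 cells, at 90% (18 of 20), 60% (6 of 10), 78.3% (108 of 138) and 74.7% (71 of 95).

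Genes outside the immunoglobulin loci were compared between Ighv1-72 cells and other cells, within libraries, on summed counts (edgeR quasi-likelihood test with the library as a block). Of 10233 genes tested, 524 passed a Benjamini-Hochberg adjusted p of 0.05 (5.12%), of which 174 were higher (1.70%) and 350 lower (3.42%) in Ighv1-72 cells. Among the lists with 5 or more tested genes, memory-associated and naive follicular genes had the largest share of members that fell, and germinal centre identity genes the largest share that rose. When cells were weighted so that both sides had the same cluster shares, 33 genes were higher and 67 lower, of which 21 and 66 were among the first set. DESeq2 called 37 and 88, and edgeR called 40 and 168 without the control library. Without the library block edgeR called 0, with 172 genes at an unadjusted p under 0.05.

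Of 18 memory-associated genes, 10 fell and 1, Zbtb20, rose, with a median log2 difference of -0.80 beside 0.01 over all genes. Bcl2, which blocks cell death, stood at 3.04, 0, 6.69 and 3.14 CPM (counts scaled to the same total in each sum) in Ighv1-72 cells and at 25.2, 9.18, 21.4 and 17.6 in others, lower in 4 of 4 libraries. Its log2 difference was -2.09 (SE 0.19; edgeR adjusted p = 2.07e-09). Plac8 stood at 8.10, 11.2, 50.6 and 25.6 CPM against 63.0, 40.8, 266 and 195, a difference of -2.60 (SE 0.096; adjusted p = 1.3e-19, edgeR), again lower in 4 of 4. The chemokine receptor Ccr6 fell by 1.98 and the ectoenzyme Cd38 fell by 1.43 on the log2 scale. With equal cluster shares 3 of these 18 genes were lower and 1 higher, with a median of 0.04. Ccr6 (-0.95), Cd38 (-0.82), Bcl2 (-1.14) and Plac8 (-1.46) were still lower there, and Hhex turned from -0.78 to 0.22.

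Of 8 naive follicular genes tested 7 fell, with a median of -1.19. They include Klf2 (-0.82), which keeps lymphocytes resting, and Ccr7, which guides cells to the T zone. Ccr7 was 4.05, 0, 11.1 and 1.80 CPM against 24.6, 3.81, 24.1 and 5.82, lower in 4 of 4 (log2 -1.37, SE 0.188, edgeR adjusted p = 5.39e-06). With equal cluster shares 1 of 8 was lower, Ccr7 and Klf2 stood at -0.36 and 0.35, and the median was -0.32. Of 12 IL-4/STAT6 response genes tested, 5 fell (Fcer2a, H2-Aa, Il4i1, Socs1 and Socs3), with a median of -0.23. Il4i1, an IL-4-induced amino acid oxidase, stood at 39.5, 50.6, 147 and 136 CPM against 83.3, 77.3, 162 and 246, lower in 4 of 4 (log2 -0.53, SE 0.092, edgeR adjusted p = 0.000186). Fcer2a, the low-affinity IgE receptor, was 32.4, 48.7, 118 and 138 CPM against 86.6, 35.4, 122 and 257, lower in 3 of 4 (-0.50). With equal cluster shares Il4i1 and Fcer2a stood at -0.26 and -0.36 with edgeR adjusted p-values of 0.0685 and 0.133, and the median of the 12 was -0.10.

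Of 16 germinal centre identity genes 5 rose, Basp1, Fas, Gcsam and Mef2b among them, with a median of 0.17. Mef2b, a transcription factor of germinal centre B cells, was 551, 607, 506 and 463 CPM against 509.9, 574, 477 and 366, higher in 4 of 4 (log2 0.20, SE 0.0571, edgeR adjusted p = 0.0356), and stood at 0.02 with equal cluster shares and at -0.05 with at least 10 Ighv UMIs per cell. Of 12 dark zone genes 3 rose (median 0.20). All 18 G2/M genes had positive differences but only Cenpf passed (median 0.16). Of 16 light zone activation genes 4 fell, Cd83 (-0.22) and Gpr183 among them, and 1 rose (median -0.14). With equal cluster shares the medians of these lists were 0.01, 0.00, -0.03 and -0.07. Of 21 B cell receptor signalling genes 1 fell, Cd72, a negative regulator of the receptor, with a list median of -0.09. Of 14 plasma cell genes 2 rose (Slpi and Tnfrsf17) and 2 fell, Jchain (-0.21) and Prdm1 (-0.90), the latter a driver of plasma cell fate. Jchain turned to 0.065 without plasma-like cells and to 0.079 with at least 10 Ighv UMIs per cell, and Prdm1 did not pass with equal cluster shares (edgeR adjusted p = 0.147) or with DESeq2 (adjusted p = 0.226). With equal cluster shares 3 of the 14 were higher and 1 lower.

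Fscn1, an actin-bundling protein, had the lowest p of the named genes that rose, though not the largest difference. It stood at 15.2, 18.7, 74.2 and 79.0 CPM in Ighv1-72 cells and 5.71, 5.37, 34.7 and 41.4 in others, higher in 4 of 4 libraries (log2 1.05, SE 0.088, edgeR adjusted p = 3.06e-10). It kept this size with equal cluster shares (1.09). Palm (0.83), Serpinf1 (0.83), Scn8a (1.02) and Arhgap8 (0.74) also held their calls there, while Prg3 (1.32), Fbxo2 (1.19), Chrna9 (1.14), Chml (0.85) and Vwa3b (0.81), all at or below 18.7 CPM, did not. Besides Bcl2 and Plac8, the largest falls were in Fcer1g (-3.77), Tlr7 (-2.70), Lag3 (-2.66), Plaur (-2.56), Cnrip1 (-2.48), Cd1d1 (-2.48), Carmil1 (-2.38) and Rnf144a (-2.22). These were low genes, at 0 to 3.04 CPM in Ighv1-72 cells and 0.448 to 14.5 CPM in others. With equal cluster shares Fcer1g held its call (-3.20, edgeR adjusted p = 8.08e-05). Lag3, Plaur and Cd1d1 did not (edgeR adjusted p = 0.115, 0.146 and 0.158), and Tlr7, Cnrip1, Carmil1 and Rnf144a were not tested there. DESeq2 called Fcer1g, Plaur and Cd1d1 but none of the others in this group of low genes.

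**Figure D4:**
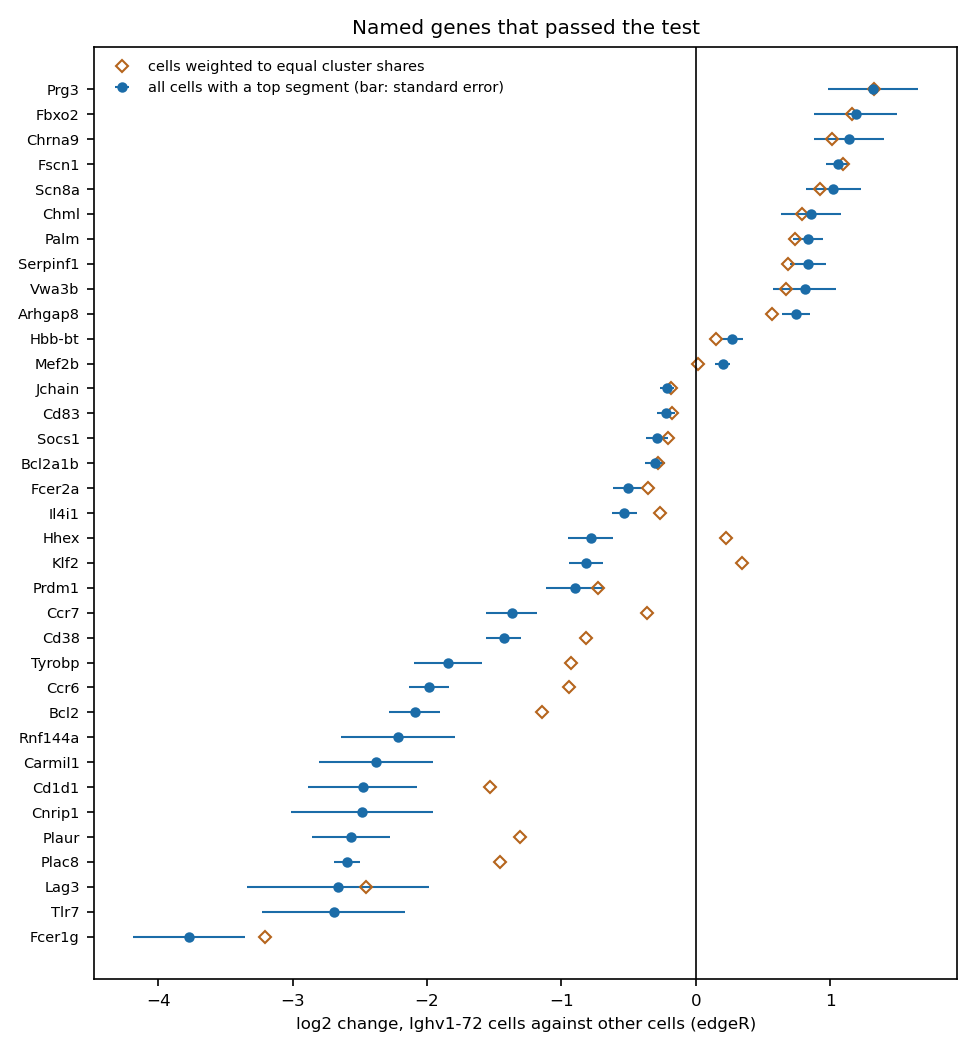
Log2 difference between Ighv1-72 cells and cells with another top segment (x axis) for the named genes that passed the edgeR test (y axis), with standard errors. Filled points are all cells and open diamonds the same cells weighted to equal cluster shares, where Fscn1 is at 1.09 and Bcl2, Ccr6, Cd38 and Plac8 stay below 0, while Hhex and Klf2 lie above 0.

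Marker lists of other cell types were summed on both sides. Of 11 myeloid markers 5 could be tested, and Fcer1g and Tyrobp fell. The 11 summed to 10.9 to 36.1 CPM in Ighv1-72 cells and 23.6 to 76.9 CPM in others, lower in 4 of 4. None of the 11 was at 0 over the 4 libraries together, but Fcer1g, Tyrobp and S100a8 were at 0 in the Ighv1-72 cells of Day14 library 2. The T cell list summed to 59.7 to 138 CPM against 57.5 to 141, most of it Lck, with Cd3e, Cd8a, Il7r and Trbc1 at 0 in Ighv1-72 cells. Of 6 erythroid markers 3 could be tested and 1 rose, the globin gene Hbb-bt (log2 0.27, higher in 4 of 4 libraries, edgeR adjusted p = 0.0358). Its adjusted p was 0.597 with equal cluster shares in edgeR and 0.369 with DESeq2. The globin genes Hbb-bs (log2 -0.50, higher in 0 of 4 libraries) and Hba-a2 (-1.72, higher in 1 of 4) went the other way. Neither passed (edgeR adjusted p = 0.0527 and 0.408). The 6 summed to 49.5 to 118 CPM in Ighv1-72 cells and 48.6 to 118 CPM in others. Of 10 stromal markers 5 were in both tables, summing to 55.4 to 72.1 CPM against 56.7 to 65.9, with Ccl19 and Madcam1 at 0 in Ighv1-72 cells, and the 1 tested, Cr1l, did not pass. The part of myeloid or erythroid RNA in the gene differences was not tested.

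The Ighv3-6 cells of Day14 library 2 stood apart from Ighv3-6 cells elsewhere. There 92.0% (218 of 237) were IgM or IgD, 86.1% (186 of 216) had the kappa segment Igkv3-2, and 1.62% (4 of 247) were memory precursor-like. In the other libraries 21.2%, 28.9% and 27.9% of Ighv3-6 cells were memory precursor-like, and the leading light chain segment took 6 of 18, 8 of 64 and 6 of 39 cells. Ighv3-6 led 48.6% (105 of 216) of the assigned cells of cluster 1 in that library, 41.5% of its IgM or IgD cells and 38.5% (15 of 39) of its IgG3 cells. Ighv3-6 with Igkv3-2 was not the leading combination of Ighv3-6 in the other libraries. Ighv1-53 paired with Igkv3-2 too, in 77.6% (38 of 49) and 75.0% (15 of 20) of cells of the Day14 libraries.

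For some pairs of segments, cells with the rarer segment held the commoner one far more often than other cells did. Cells with at least 2 UMIs of both were counted. In Day14 library 2, 54 of 119 cells with Ighv10-1 also had Ighv3-6 (45.4%, 36.2 to 54.8), against 4.80% of cells without Ighv10-1. Their median UMIs were 4 of Ighv3-6 and 2 of Ighv10-1. All 46 with a light chain V call had Igkv3-2, and all 54 were IgM or IgD. The longest run their sequences share is 16 bases. In the control, 42 of 51 cells with the pseudogene Ighv1-83 also had Ighv9-3 (82.4%, 69.1 to 91.6, against 3.59%), at medians of 14 Ighv9-3 and 10 Ighv1-83 UMIs. These 42 cells held 87.4% of the library's Ighv1-83 UMIs, and 17 of 19 had Iglv2. In the KO, Ighv1-83 had 33 UMIs against 653 in the control. Because such cells fall under the 80% rule, only 8 of the 54 and 2 of the 42 were given a top segment.

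The near copy of Ighv1-72 behaved otherwise. Of cells with Ighv1-62-3, 37 of 41 in the control (90.2%, 76.9 to 97.3, against 18%) and 14 of 17 in the KO (82.4%, 56.6 to 96.2, against 17.7%) also had Ighv1-72. They held medians of 340 Ighv1-72 UMIs with 3 of Ighv1-62-3, and of 181 with 3.5. Ighv1-62-3 appeared at a median of 0.0118 and 0.0171 UMI per Ighv1-72 UMI, and it was the top segment of 1 cell in all 4 libraries. In Day14 library 1, 15 of 89 cells with Ighv3-6 also had Ighv1-72 (16.9%). All 12 of those with a light chain V call had Igkv3-10, and all 15 were IgM or IgD.

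Day14 cluster 7, which in library 2 held 321 cells that were mainly IgG2c (93.5% of 185 called), had 317 Ighv UMIs in all. Ighv1-26 gave 193 of them (60.9%) and Ighv8-7 gave 81 (25.6%), and 91 of 96 cells with a light chain V call had Igkv6-23. Of all Ighv1-26 cells of that library 66.7% (24 of 36) were IgG2c, and Ighv1-26 led 45.3% (24 of 53) of its IgG2c cells. Ighv1-26 also led the control's IgG2c cells, at 10.3% (10 of 97), whereas Ighv5-4 led those of the KO, at 15.8% (6 of 38). Ighv1-18 led the plasma-like cells of Day14 library 2, at 38.5% (10 of 26), and 17.0% (8 of 47) of its IgG2b cells.

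The KO and control chimaeras were each 1 library, so their difference has no replicate check and an interval compares the libraries, not the conditions. The question is whether B cells in hosts whose stroma lacks the receptor use other V segments. Ighv1-72, Ighv3-6, Ighv1-26 and Ighv1-53 had KO to control ratios of 0.977 (0.868 to 1.10), 0.874 (0.628 to 1.21), 1.02 (0.741 to 1.39) and 1.13 (0.855 to 1.51), all with intervals across 1. Ighv14-3 (0.784, 0.629 to 0.976) and Ighv9-3 (0.724, 0.556 to 0.939) were lower by less than 1.5-fold. Of 56 segments with at least 0.5% of cells in either library, 15 (26.8%) differed by 1.5-fold or more with an interval that leaves out 1. The 2 wild type Day14 libraries, compared in the same way, gave 12 of 56 (21.4%). They had 765 and 800 cells with a top segment against 3236 in the control and 2798 in the KO. Intervals are wider with fewer cells, so the counts of segments called are not on an equal footing. In both pairs a segment could pass the 0.5% limit only through the library where it was higher, which favours a large ratio. Ighv14-1 did so, at 0.0927% in the control and 0.679% in the KO, and at 0.131% and 1.88% in Day14 libraries 1 and 2. The median absolute log2 ratio was 0.465 for KO to control and 0.946 for the Day14 pair, where counting error is also larger.

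In the KO 10 segments were higher (17.9%) and 5 lower (8.93%). Ighv1-18 was 0.834% of cells in the control and 2.43% in the KO (27 and 68 cells; ratio 2.91, 1.84 to 4.73), and Ighv8-8 was 1.89% and 3.32% (1.76, 1.26 to 2.48). The other segments that were higher were rarer, with Ighv14-1 at 0.0927% and 0.679% (3 and 19 cells; 7.32, 2.16 to 38.6), Ighv1-36 at 0.216% and 1.18% (5.45, 2.37 to 14.6) and Ighv14-4, Ighv9-1 and Ighv3-1 at ratios of 3.28, 2.89 and 2.73. Lower in the KO were Ighv3-8 (1.21% and 0.465%; 0.386, 0.189 to 0.738), Ighv5-6 (0.402), Ighv1-5 (0.470), Ighv6-6 (0.479) and Ighv1-82 (0.569). In the Day14 pair 3 segments were higher in library 2 (5.36%), led by Ighv3-6 (7.16, 4.96 to 10.6) and Ighv1-26 (2.0, 1.17 to 3.55). Another 9 were lower (16.1%), among them Ighv1-72 (0.519, 0.387 to 0.691), Ighv1-53 (0.392) and Ighv14-3 (0.478). Among segments at 2% or more in either library of a pair, the largest ratio was that of Ighv3-6 between the wild type libraries.

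**Figure D5:**
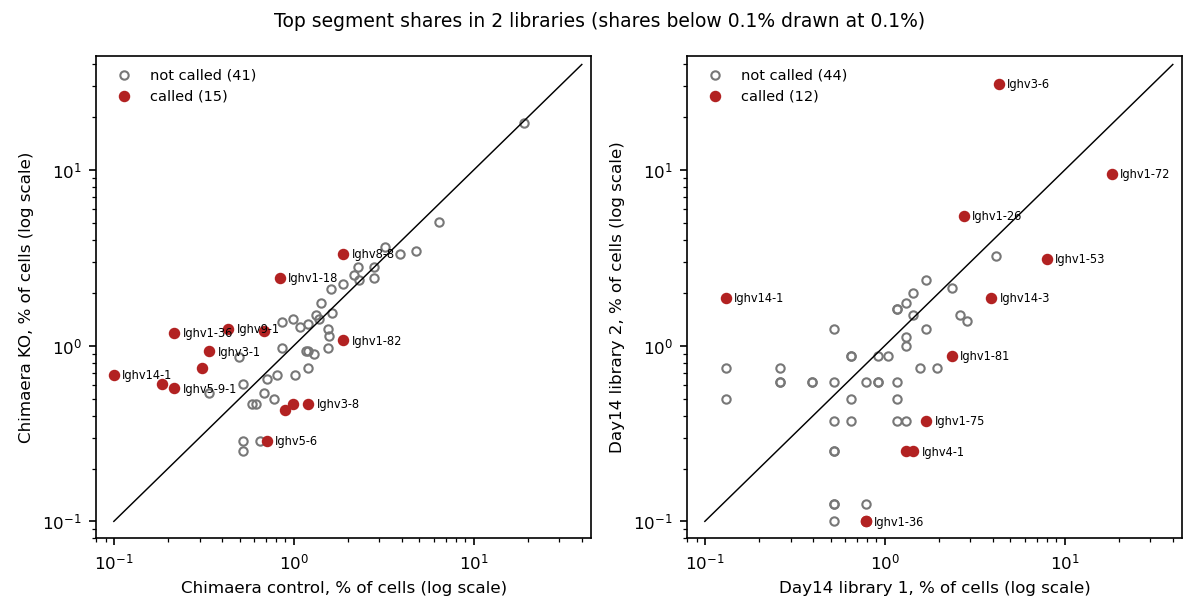
Share of cells by top segment in the KO (y axis) against the control (x axis), left, and in Day14 library 2 against library 1, right, both axes in % on a log scale; filled points differ by 1.5-fold or more with an exact 95% interval that leaves out 1. Ighv1-72 lies on the diagonal between the chimaeras and below it between the Day14 libraries, and Ighv3-6 lies far above it in Day14 library 2.

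Within IgG1 cells Ighv1-72 was less used in the KO than in the control, at 28.7% against 43.3% (ratio 0.662, 0.507 to 0.862). In IgM or IgD cells it was 15.0% against 14.9% (1.0, 0.845 to 1.19), and in IgG2b cells 32.1% (25 of 78) against 20.9% (27 of 129; 1.53, 0.852 to 2.74). Between the Day14 libraries the IgM or IgD cells differed (9.71% in library 2 against 20.4%; 0.475, 0.334 to 0.668), and with 6 of 36 and 11 of 30 IgG1 cells led by Ighv1-72 the IgG1 ratio was 2.2 (0.746 to 7.25).

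Summed over all cells, Ighv transcripts were lower in the KO. Of 43 segments at 20 CPM or more in either library, 37 differed by at least 0.5 on the log2 scale with an interval that leaves out 0. They were 34 lower and 3 higher, and the median of the 43 was -1.08. Of all 5189 genes under the same limit 175 differed so (3.37%), 2.49% lower and 0.886% higher. Some segments reached 20 CPM only where they were higher, such as Ighv3-8 (86.7 CPM in the control, 3.99 in the KO) and Ighv3-5 (1.62 and 31.0). The limit thus favours segments that differ, and these counts only describe the 2 libraries. Between the Day14 libraries the 4 segments at 20 CPM or more in either library all differed, beside 0.831% of 6136 genes (0.31% higher and 0.522% lower). Ighv3-6 (2.44) and Ighv1-26 (1.60) were higher in library 2, and Ighv1-53 (-1.45) and Ighv1-72 (-1.02) were lower. Ighv1-72 reached 20 CPM in both libraries (54.0 and 26.7 CPM). Ighv3-6 (13.8 and 74.9), Ighv1-26 (7.49 and 22.7) and Ighv1-53 (31.5 and 11.5) reached it only where they were higher, so the limit itself favoured a difference. Ighv1-72 was 439 CPM in the control and 229 in the KO (log2 -0.94, -0.97 to -0.91), while the ratio of the shares of cells it led was 0.977. Plasma-like cells were 3.58% and 1.86% of the control and KO cells and held 68.1% and 44.2% of the Ighv UMIs, against 0.790% and 0.667% of cells and 16.6% and 5.80% of UMIs in Day14. The part of the plasma-like cells in the lower level was not tested. Segments can also rest on very few cells: in the control 5 cells held 74.9% of the Ighv1-18 UMIs and 64.4% of the Ighv3-6 UMIs. Fewer cells of a type and less RNA per cell cannot be told apart in such sums.

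The level of Ighv transcripts, as a share of a cell's UMIs, followed the cell state in every library. Plasma-like cells were higher than the rest by 4.17, 2.80, 5.24 and 5.02 on the log2 scale (mean 4.31 ± 1.11 SD). The exact sign-flip test gave its lowest p for 4 libraries, 0.13. Light zone cells were above dark zone cells by 1.07 with all cells and by 0.37 ± 0.097 without plasma-like cells, in 4 of 4 libraries each time. S phase cells were below G1 cells by a log2 difference of -1.19, and -0.54 without plasma-like cells. IgG1 cells were below IgM or IgD cells by -1.18 ± 0.26 once plasma-like cells were left out, in 4 of 4 libraries, against -0.34 and 3 of 4 with them. Memory precursor-like cells were above other cells by 1.07 ± 0.48 without plasma-like cells (4 of 4), while with them the 4 libraries gave 1.36, 1.17, -1.17 and -0.33. Cells with a low level are less likely to be given a top segment, so the shares above weigh cells of high Ighv level more.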

How the data were processed

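The tables of 4 single-cell libraries hold UMI counts, deposited by the authors without normalisation. The library, zone, cell cycle phase and cluster of each cell are the authors' deposited calls, and how these were made is not given in the sources used here. Per the submitters' processing notes, Cell Ranger, Seurat and the mm10 genome were used, with no settings. The Day7 libraries list no Ighv symbols and were not used here, nor was 1 column of receptor barcode names. All deposited cells were kept and no doublet caller was run. Counts of whole V symbols were used, without reassembled receptors.

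Shares have exact Clopper-Pearson 95% intervals and ratios exact conditional binomial ones, which cover counting error only. Differences within libraries were tested over the 4 libraries with a two-sided exact sign-flip test. Genes were tested on 8 summed count columns (Ighv1-72 and other cells of each library) with edgeR 4.0.16 (TMM scaling, filterByExpr, library block, quasi-likelihood test), without immunoglobulin genes, using R 4.3.3, with DESeq2 1.42.0 as an alternative. On simulated data for this comparison over 10329 genes, the test recovered 100% of 100 genes changed by 1 and of 100 changed by 2 on the log2 scale, with 8 false calls. The changed genes were drawn only from genes with higher counts, and all genes were simulated with 1 common dispersion. The recovery of genes with low counts was therefore not tested. Other steps used Python 3.11.15, pandas 2.3.3, numpy 2.4.6, scipy 1.17.1, biopython 1.88 and matplotlib 3.10.9.

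Clusters were named from the marker list with the highest median log2 ratio over all other cells. That median had to be at least 0.5 with 3 or more markers raised. The list also had to be that of light zone, dark zone, selected, memory precursor or plasma cells. Where more than 1 of these lists passed, a marker of the highest list had to be among the cluster's 10 leading genes. Segments were named when they led at least 2% of cells in any library, or were among the first 6 in each direction between KO and control. Genes were named as the 10 largest called changes in each direction with the same sign in 4 libraries, plus up to 4 members of each list. Some genes that this rule names are not reported here, and they still count in the totals of their lists. Zbtb20, Fas, Gcsam, Basp1, Gpr183, Cenpf, H2-Aa, Socs3, Cd72, Slpi and Tnfrsf17 were named as called members of their lists after their values were seen, as were the segment pairs found in the same cells and Day14 cluster 7. The members, lists and tests were chosen with earlier results of these data known. The labels do not say that the libraries came from separate animals, so p-values measure the spread between these libraries. The libraries pair Ighv1-72 cells with other cells of the same library, which is the block. Alternatives added after seeing the data were the light chain call by V segment, leaving out Day14 cluster 8 with the plasma-like cells, a minimum of 10 Ighv UMIs and no plasma-like cells in the gene test, and all alternatives of the memory precursor-like diversity.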

Additional observations from a re-analysis of the deposited data

Results flagged for a closer look

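The 5 results given here had opposite signs in the 2 Day14 libraries and the 2 chimaera libraries, and the difference between the sets was not tested. The share of IgG2b in Ighv1-72 cells minus other cells was -1.82 and -2.66 points in Day14 and 0.775 and 3.49 points in the chimaeras, a Day14 minus chimaera difference of -4.37. For IgG3 the values were -0.345 and -1.38 against 0.355 and 1.86 points, a difference of -1.97. The Ighv level of memory precursor-like minus other cells was 1.36 and 1.17 against -1.17 and -0.33 on the log2 scale, a difference of 2.01, and it was above 0 in 4 of 4 libraries without plasma-like cells. In Ighv1-72 cells against other cells, Bcl2a1b, a survival gene, gave log2 values of 0.00 and 0.25 against -0.42 and -0.31 (difference 0.49). Cr1l, a complement regulator, gave 0.11 and 0.36 against -0.04 and -0.07 (difference 0.29).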

How the results depend on the processing

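Over 1665 recomputed values, 24 changed direction. With at least 1 Ighv UMI per cell the Ighv1-72 share was 22.8% in Day14 library 1, 22.1% in the control and 21.0% in the KO, the Ighv3-6 share of Day14 library 2 was 16.8% and that library's inverse Simpson index 17.0. With at least 10 UMIs, Ighv1-72 had 7.55%, 2.44%, 13.1% and 12.9% in the 4 libraries, Ighv3-6 in Day14 library 2 had 43.1%, and the index was 36.1 in Day14 library 1 and 28.2 in the KO. As a share of UMIs Ighv1-72 had 13.0% and 14.1% in the control and KO and Ighv3-6 had 23.3% in Day14 library 2, where a 95% top segment rule gave 27.6%. Segments that differed between the Day14 libraries numbered 26 with at least 1 UMI, where Ighv1-81 turned to 0.30 on the log2 scale, and 2 with at least 10 UMIs.

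The IgG2b difference turned to 0.23 points with a top segment over 50%, to 0.027 with the 95% rule, to 0.32 without plasma-like cells and to 0.59 without these and Day14 cluster 8. The IgG3 difference turned to -0.49 points with at least 1 UMI, -0.37 without plasma-like cells and -0.88 without these and cluster 8. Among IgG1 cells G1 was 3.67, S -0.66 and G2M -3.0 points and plasma-like 6.89, and with at least 10 UMIs plasma-like was 8.99. In these and the gene results the cause was not tested. The lambda and IgG2c differences kept their direction in each alternative run. The mean dark zone, light zone and memory precursor-like differences did too, but among IgG1 cells they shrank to 0.753, -0.525 and -0.997 points, with Day14 library 1 (6 Ighv1-72 cells) on the other side at -20, 20 and 10 points. With at least 10 UMIs the dark and light zone differences were 2.17 and -2.13 points. Day14 library 2, with 3 Ighv1-72 cells in that setting, was on the other side at -14.2 and 15. Day14 library 1 had 8 Ighv1-72 cells there.

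Leaving out 1 library at a time gave differences of 7.77 to 15.6 for IgG1, -1.24 to 0.814 for IgG2b, -4.74 to -2.95 for IgG2c, -0.458 to 0.622 for IgG3, -11.1 to -2.87 for IgM/IgD, 25.4 to 32.1 for lambda, 10.0 to 13.9 for DZ, -12.3 to -9.93 for G1, 4.82 to 8.38 for G2M, -14.0 to -9.91 for LZ, 3.81 to 5.54 for S, -17.0 to -11.6 for memory precursor-like, -1.73 to -0.968 for plasma-like and 0.233 to 1.99 for selected-like percentage points, and Ighv level differences (log2) of -0.96 to -0.66 for G2M minus G1, -0.73 to -0.12 for IgG1 minus IgM/IgD, -1.38 to -1.07 for S minus G1, 0.90 to 1.26 for light zone minus dark zone, -0.11 to 0.73 for memory precursor-like minus other and 4.0 to 4.81 for plasma-like minus other. The memory precursor-like level turned to -0.11 without Day14 library 1 and to -0.048 without Day14 library 2. IgG2b turned to 0.54 and 0.81 without Day14 library 1 and 2, and IgG3 to -0.46 without the KO. Genes higher numbered 40 to 177 and genes lower 168 to 386 in these runs. They were 40 and 168 without the control and 56 and 214 without the KO. With 3 libraries the exact test cannot go below 0.25.

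Genes higher and lower in Ighv1-72 cells (174 and 350) became 2 and 15 in IgG1 cells only, 33 and 67 with equal cluster shares, 36 and 93 with at least 10 UMIs, 37 and 88 with DESeq2, which were all among the first set, and 209 and 414 without plasma-like cells. Without a filter on low counts 176 and 527 passed. Without the library block, that is with no replicate block, edgeR called 0 higher and 0 lower, with 172 genes at an unadjusted p under 0.05. Jchain turned to 0.065 without plasma-like cells and 0.079 with at least 10 UMIs, where Mef2b turned to -0.0515. Cd83 turned to 0.033 among IgG1 cells. Hhex and Klf2 turned to 0.22 and 0.35 with equal cluster shares. With a minimum of 5 CPM in either library, 333 genes (56 Ighv) differed between KO and control and 164 (16 Ighv) between the Day14 libraries.

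Few cells per library limit the Day14 shares within an isotype or cluster, with 36 and 30 IgG1 cells. The 80% rule leaves out cells whose UMIs are split between copies, and 8.40%, 7.51%, 40.3% and 38.3% of cells were given a top segment, so shares describe the cells with more Ighv RNA. Free RNA from plasma-like cells is not separated. The KO and control were 1 library each, and reads from near copies cannot be told apart.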

Other observations

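Light chain partners of the less used segments are given by library. Of Ighv9-3 cells with a light chain V call, 32.6% (28 of 86) had Iglv2 in the control, while in the KO the leading partner was Igkv1-117 (6 of 42). Ighv5-17 was found with Iglv1 in 25 of 49 control cells and 15 of 32 KO cells, and Ighv14-2 in 18 of 29 and 8 of 28. Ighv8-8 had Igkv6-20 in 13 of 34 control cells, Iglv1 in 11 of 44 KO cells and Igkv9-120 in 7 of 13 cells of Day14 library 2. Ighv1-18 had Igkv8-28 in 12 of 17 cells of Day14 library 2 and Igkv6-23 in 13 of 47 KO cells. Of the 59 IgA cells with a top segment in the control, Ighv1-82, Ighv3-8 and Ighv5-6 each led 5 (8.47%). These are the cells of 1 library each and the differences were not tested.

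Symbols annotated as pseudogenes gave 1.60%, 3.67%, 0.492% and 0.323% of Ighv UMIs in Day14 library 1, Day14 library 2, the control and the KO. Ighv8-7 and Ighv1-83, described above, were among the segments that appeared beside another segment in the same cells.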
